A study of Mus musculus with 8 samples.

Results

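The oogenesins and the oocyte-secreted proteins were examined as 7 genes, Oog1, Oog2, Oog3, Oog4, Oosp1, Oosp2 and Oosp3, selected by symbol from the deposited expression tables. All 7 were present in both tables, among 8537 genes that the tables share. The study measured total and ribosome-bound mRNA in MII oocytes, the mature eggs arrested at the second meiotic metaphase, and asked how both change with the age of the mother. Oocytes came from RiboTag F/F;Zp3-Cre females on a C57BL/6 background, aged 1 month (young) or 12 to 15 months (old, retired breeders). Females of both ages were primed with 5 IU PMSG, given 10 IU hCG after 48 h, and their eggs were collected 13 h after hCG. Each age was represented by 2 pools of 200 oocytes. In this model the oocyte promoter Zp3 drives Cre, so that the HA-tagged ribosomal protein Rpl22 is made in oocytes, and tagged ribosomes are precipitated with an HA antibody. An aliquot of 10% of each lysate served as input (total mRNA) and the remainder gave the HA library (ribosome-bound mRNA), for 8 libraries in total. There was no mouse without the tag or without Cre among these libraries, so the background of the precipitation was not measured.

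Oogenesins are leucine-rich repeat proteins of the PRAME-like family, which in the mouse has expanded into clusters of closely related genes, many of them expressed in oocytes and early embryos. Oosp proteins are small proteins with a signal sequence that are made by oocytes and are related to the placental protein Plac1. In a maturing oocyte transcription is silent, and stored mRNAs are translated or kept dormant according to elements in their 3'-UTR. Of these, the cytoplasmic polyadenylation element (CPE) is bound by CPEB1.

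The genes formed 2 groups by position (GRCm38). Oosp2 (ENSMUSG00000055895.6, chr19:11647279-11660559, minus strand), Oosp1 (ENSMUSG00000041857.10, chr19:11667460-11691150, minus strand) and Oosp3 (ENSMUSG00000055933.13, chr19:11697055-11711874, plus strand) were direct neighbours, 6.90 kb and 5.90 kb apart. Oog4 (ENSMUSG00000047799.15, chr4:143437164-143450324, minus strand), Oog3 (ENSMUSG00000050810.8, chr4:144157557-144162663, minus strand) and Oog2 (ENSMUSG00000066030.6, chr4:144190719-144196934, plus strand) lay in 1 region of chromosome 4. Between Oog4 and Oog2 the annotation holds 30 other genes, 17 of them protein coding. Oog1 (ENSMUSG00000096576.1, chr12:87602688-87608850, plus strand) lay apart on chromosome 12. The annotated coding sequences encode 496, 476, 500 and 430 amino acids for Oog1 to Oog4 and 202, 168 and 195 for Oosp1 to Oosp3. Coding sequences were identical at 75.2% to 81.5% of aligned bases between Oog genes and at 64.9% to 66.0% between Oosp genes.

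The Oog genes are alike not only in their coding sequence but also upstream of it. RefSeq promoters (GRCm38.p6, 250 bases before to 50 bases after the start) were found for 6 of the 7 genes. They were identical at 70.0% to 78.0% of 300 bases between Oog genes, against 50.7% to 55.7% between an Oog and an Oosp gene. The 4 Oog windows of 120 bases that surround the shared motifs are printed because the same arrangement recurs in genes whose measured transcript levels differ. Those of Oog1 and Oog2 are uncertain, as given below. In capitals are an E-box, spelled CAGCTG, and a second motif that resembles the core promoter element bound by TBP and is spelled TATATA. The pair stood 5 bases apart in each gene.
Oog1 (chr12:87602563-87602682, plus strand): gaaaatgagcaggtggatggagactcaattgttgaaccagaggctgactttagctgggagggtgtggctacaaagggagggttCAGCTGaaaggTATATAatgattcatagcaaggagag
Oog2 (chr4:144190591-144190710, plus strand): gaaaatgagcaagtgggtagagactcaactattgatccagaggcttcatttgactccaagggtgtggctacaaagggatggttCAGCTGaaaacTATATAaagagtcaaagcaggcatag
Oog3 (chr4:144162657-144162776, minus strand): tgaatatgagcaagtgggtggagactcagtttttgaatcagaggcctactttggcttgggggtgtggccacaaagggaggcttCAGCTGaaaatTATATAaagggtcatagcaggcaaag
Oog4 (chr4:143450329-143450448, minus strand): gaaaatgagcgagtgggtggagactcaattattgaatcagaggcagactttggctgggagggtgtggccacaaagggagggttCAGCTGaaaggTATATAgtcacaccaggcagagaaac
Pairs of these windows were identical at 80.0% to 85.0% of positions. TATATA began 32, 31 and 30 bases before the RefSeq start of Oog2, Oog3 and Oog4, and 8 bases before that of Oog1. Relative to the GENCODE starts it began 31, 34, 19 and 30 bases upstream in Oog1 to Oog4, so the distance differed between genes in either annotation. Searched on both strands, TATATA occurred in 5.67% and CAGCTG in 16.3% of 32851 RefSeq promoters of the same length. The longest run common to the 4 Oog promoters, ttCAGCTGaaa (11 bases, which includes the E-box), occurred in 0.0517% of them, that is in 17 promoters of 16 genes. Besides the 4 Oog genes these were 3 genes of chromosome 4 that are PRAME-like by symbol or synonym, and 9 genes not so named. Of these 9, 1 is Gm2042, the nearest relative of Oog1 by transcript sequence. Oosp2 had CAGCTG without TATATA, and Oosp1 had neither motif in its window.

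How far reads could be assigned to these genes differed. The study aligned single-end reads of at least 36 bases, so windows of 36 bases were taken from each annotated transcript and searched in the transcripts of all other genes. For Oog1, 97.6% of windows were also found elsewhere, with 1689 of 1766 windows in Gm2042. For Oog2 the share was 53.2%, with 917 of 1882 windows in the PRAME-like gene Gm13084, and for Oog3 it was 24.8%. It was 2.26% for Oog4 and 3.37% for Oosp3, whose span overlaps the antisense processed pseudogene Gm19224. No window of Oosp1 or Oosp2 occurred in another gene. Counts for Oog1 and Oog2 are therefore uncertain, since reads could be shared with or lost to these relatives. For Oosp3, counting without strand could not separate reads of Gm19224.

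**Figure D1:**
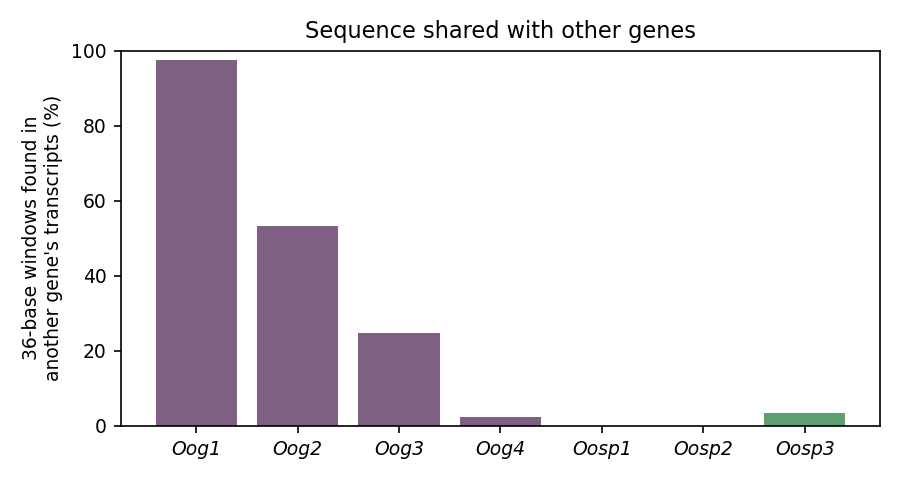
Share of the 36-base windows of each gene's annotated transcript (vertical axis, percent) that also occur in a transcript of another gene, for the 4 Oog genes (purple bars) and the 3 Oosp genes (green bars). Oog1 stands at 97.6% and Oog2 at 53.2%, whereas Oosp1 and Oosp2 are at 0.

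Levels are CPM, for which the authors scaled the reads on a gene to a library size corrected by TMM, a normalization that takes most genes as level across libraries. The corrected size was 0.896 and 0.715 times the reads on genes for old HA libraries and 1.30 and 1.20 times for young ones, so the HA columns summed to 1115494 and 1397708 CPM in old but to 771444 and 831404 CPM in young pools. In input the factors were 0.958 and 0.915 for old and 1.15 and 0.994 for young pools. The libraries held 37817382 to 59688578 reads on genes for HA and 38276453 to 60052814 for input, recovered from the deposited values as whole reads. A floor of 3 reads corresponded to at most 0.111 CPM, and such floors cover counting error only. Each of 12 oocyte markers was present in both tables. Their summed level was higher in both old pools in HA, at 14932 and 21055 against 14263 and 13646 CPM, and lower in both in input, at 11666 and 11476 against 12666 and 12445 CPM. With every library rescaled to the same sum, it was lower in both old pools in HA as well. Of 12 cumulus and granulosa markers, 8 were in the input table, with sums of 146 and 281 CPM in old and 190 and 249 CPM in young pools. The 3 in the HA table summed to 143 and 88.7 CPM in old and 195 and 202 CPM in young pools, lower in both old pools. Among them only Cyp19a1 was lower in both, at 80.4 and 69.7 against 142 and 174 CPM, whereas Nr5a2 and Fshr overlapped between ages. Of 8 markers of other ovary or oviduct cells, only Pecam1 was listed. It had 129 and 344 CPM in old and 109 and 63.1 CPM in young HA libraries, and 55.3 to 80.7 CPM in input libraries. The part of these markers in the differences between ages was not tested.

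In total mRNA, most members were abundant oocyte transcripts. To compare genes, CPM was divided by the length of the annotated exons in kb, although reads had been counted over whole genes. The mean over the 4 input libraries was 420 ± 73.3 CPM per kb for Oosp3, 375 ± 53.2 for Oog3 and 363 ± 109 for Oosp1 (SD, n = 4 libraries of both ages). The ranges of these 3 genes overlapped, from 357 to 509, from 327 to 435 and from 271 to 511 CPM per kb. Oog4 followed with 138 to 197 CPM per kb, below all of them. Oog2 (58.7 to 80.0) and Oosp2 (41.9 to 88.1) overlapped each other, and Oog1 was lowest in every input library, at 7.47 to 15.5 CPM per kb. The places of Oog1 and Oog2, here and in HA, are uncertain because of their shared sequence. In CPM, Oog3 was above 97.4% to 98.8% of the genes of the input table, depending on the library.

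In the HA libraries the upper part of this order spread out. Oosp3 (496 to 1002 CPM per kb) and Oog3 (625 to 835) overlapped and held the first and second place in every library. Oosp1 came next in all 4 libraries (332 to 592 CPM per kb), followed by Oog4 (94.9 to 218). The lower places were taken by Oog2 (39.8 to 50.4 CPM per kb), Oosp2 (1.96 to 68.6) and Oog1 (3.11 to 8.06), and Oosp2 changed its place among them with the library.

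**Figure D2:**
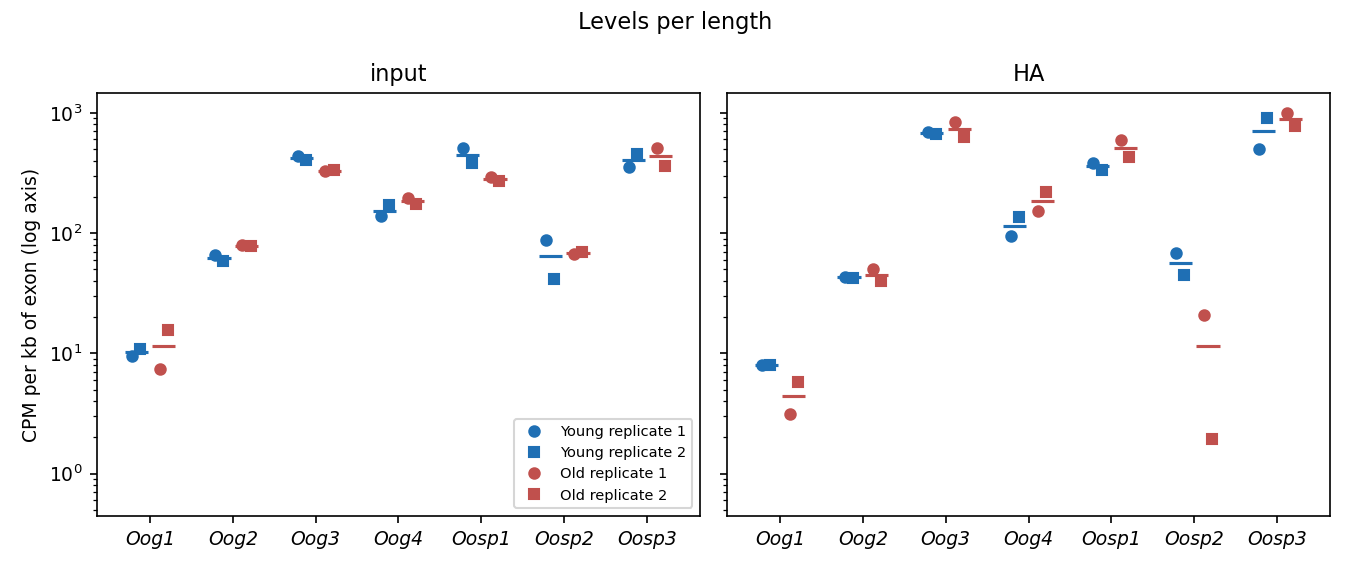
Level of each gene per kb of annotated exon (CPM per kb, logarithmic axis) in input and HA libraries. Points are single libraries, circles for replicate 1 and squares for replicate 2, blue for young and red for old, and short lines are means of 2 libraries. Oosp3, Oog3 and Oosp1 lie at the top, Oog1 is lowest in input, and the old HA libraries of Oosp2 spread from 1.96 CPM per kb upward.

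Translation efficiency (TE) was taken for each pool as HA CPM over input CPM. Because HA and input were normalized separately, a TE of 1 carries no meaning of its own, and values were read against the median TE of 6530 genes, with medians of 0.729 and 0.648 for the old pools and of 0.717 and 0.704 for the young pools. Oog3 had a TE of 2.55 and 1.87 in old and 1.58 and 1.65 in young pools. It was thereby above 76.3% to 88.0% of genes in each pool. Oosp3 had a TE of 1.97 and 2.13 in old and 1.39 and 2.02 in young pools, above 79.7% to 90.8% of genes. Both genes thus had a high ratio of ribosome-bound to total mRNA at either age. Oog2 stayed close to the median, with 0.630 and 0.513 in old and 0.657 and 0.724 in young pools.

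The comparison of old and young oocytes asked whether total mRNA, ribosome-bound mRNA or their ratio differed with maternal age. Differences were tested with limma on log2(CPM + 1) over all genes of a table, a scale that understates the change of low genes. None of the 7 genes passed an adjusted p of 0.05 (Benjamini-Hochberg over all genes) in input, HA or TE. In the whole tables, 0.0095% of genes passed this threshold in input, and 0% in HA and in TE. The HA number was not stable, with 260 higher and 133 lower genes without old replicate 1, and 0 higher and 634 lower without young replicate 2. For 1 gene alone, the smallest two-sided p that an exact permutation of 2 old and 2 young pools allows is 0.333. At an unadjusted p under 0.05 there was 1 member in input and 1 in TE, in both cases Oosp1, and 0 in HA, whereas 6.18%, 6.49% and 14.7% of all genes reached it in input, TE and HA.

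Oosp1, a secreted protein of the oocyte, moved in opposite directions in the 2 fractions. Its input level was 283 and 263 CPM in old and 497 and 368 CPM in young oocytes. Its HA level was 575 and 416 CPM in old and 374 and 323 CPM in young oocytes. Both old pools were thus below both young pools in input and above them in HA, without overlap, as in 1.83% of the 8537 genes of both tables. Of the 12 oocyte markers, 2 showed the same separation, Gdf9 and Nlrp5. The mean was 273 ± 14.1 against 433 ± 90.6 CPM in input and 496 ± 112 against 348 ± 35.8 CPM in HA (old against young, SD, n = 2 pools each). In limma the log2 difference, old minus young, was -0.65 (standard error 0.27, 95% confidence interval -1.27 to -0.03, adjusted p = 0.778) in input. In HA it was 0.49 (standard error 0.42, interval -0.50 to 1.49, adjusted p = 0.72). The HA difference was not stable to the scaling of the libraries, being -0.13 after quantile normalization and -0.15 with all libraries rescaled to the same sum. Rescaling to the same sum moved the median difference of all genes in HA from -0.14 to -0.68, and relative to that median Oosp1 was higher by 0.63 as deposited and by 0.53 after rescaling. After quantile normalization it was at -0.08 relative to the median.

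The TE of Oosp1 was 2.03 and 1.58 in old and 0.752 and 0.877 in young pools. Every old pool lay above every young pool, with means of 1.81 ± 0.318 and 0.815 ± 0.0879 (SD, n = 2 pools each), a ratio of 2.22. Within each pool Oosp1 stood above 82.9% and 72.2% of genes by TE in old and above 53.0% and 61.1% in young oocytes. The log2 difference in TE was 1.14 (standard error 0.49, interval 0.02 to 2.27, unadjusted p = 0.0476, adjusted p = 0.739 in limma). It was positive in all 13 alternative settings, from 0.67 to 1.33, with adjusted p-values from 0.190 to 1.00. After quantile normalization it was 0.67 (unadjusted p = 0.218 in limma), and with libraries rescaled to the same sum it was 0.69 (unadjusted p = 0.198), so that neither interval left out 0. Nor did the interval without old replicate 1, without young replicate 1 or without young replicate 2 (unadjusted p = 0.0703, 0.25 and 0.154). In the interaction of age and fraction on the recovered reads it was 1.17 (adjusted p = 0.430, edgeR's quasi-likelihood test).

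Oosp2, the neighbouring gene of the same family, had the largest difference among the members, and in the other direction. Its HA level was 14.1 and 1.33 CPM in old and 46.5 and 30.5 CPM in young oocytes. Behind the old values were 595 and 36 reads, and behind the young values 3599 and 1728 reads, all above the floor of 3 reads. Both old pools were below both young pools, but the old pools differed 10.6-fold from each other. The input level overlapped between ages, with 45.3 and 47.0 CPM in old and 59.7 and 28.4 CPM in young oocytes. The TE was 0.312 and 0.0283 in old and 0.779 and 1.07 in young pools. Here too both old pools lay below the young ones, with means of 0.170 ± 0.201 and 0.926 ± 0.207 (SD, n = 2 pools each).

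In limma the log2 difference of Oosp2 was -2.70 in HA (standard error 1.51, interval -6.29 to 0.89, adjusted p = 0.494) and -2.86 in TE (standard error 1.41, interval -6.07 to 0.35, adjusted p = 0.739). Its size depended on the old pool with 36 reads. Without old replicate 2 the difference was -1.35 in HA (adjusted p = 0.413) and -1.48 in TE (adjusted p = 0.429). Without old replicate 1 it was -4.05 in HA (adjusted p = 0.0538) and -4.24 in TE (adjusted p = 0.0753). In these fits the lone old library is assumed to vary like the young ones. The sign was negative in all 14 alternative settings for HA, from -4.05 to -1.35, with adjusted p-values from 0.0538 to 1.00. In input the log2 difference was 0.16 (interval -1.09 to 1.41, adjusted p = 0.983). A lower HA level in a pool could come from fewer oocytes with ribosome-bound transcript or from less of it bound per oocyte. These cannot be told apart in these libraries.

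Oosp3 did not separate the ages in any measure. It had 419 and 299 CPM in old and 294 and 371 CPM in young input libraries. In HA it had 825 and 637 CPM in old and 408 and 750 CPM in young libraries. In HA, old replicate 2 lay between the young pools, which were 1.84-fold apart, and old replicate 1 lay above them. The log2 difference was 0.10 in input (interval -0.56 to 0.76), 0.39 in HA (interval -0.67 to 1.45) and 0.29 in TE (interval -0.79 to 1.37), with adjusted p-values of 0.982, 0.81 and 0.918 in limma. These intervals leave room for a change of more than 1 log2 unit in HA and TE, so a similar level at both ages was not shown.

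**Figure D3:**
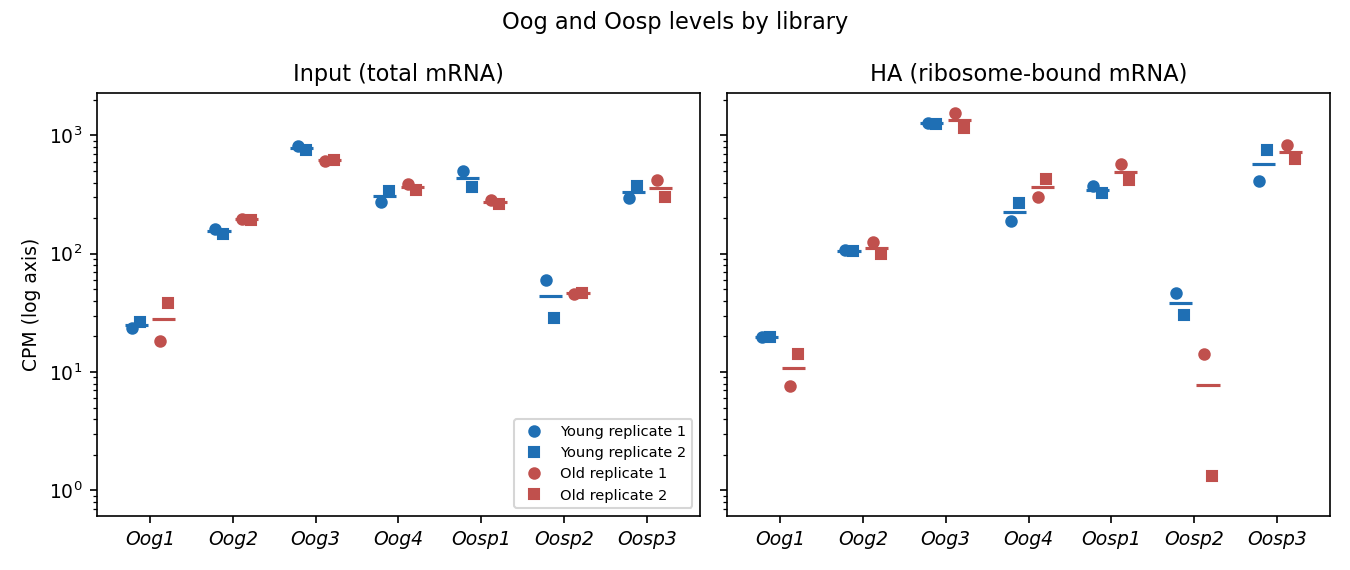
Input and HA level of each gene (CPM, logarithmic axis) in every library. Points are single libraries, circles for replicate 1 and squares for replicate 2, blue for young and red for old, and short lines are means of 2 libraries. Oosp1 is lower in both old pools in input and higher in both in HA, and Oosp2 is lower in both old HA libraries, at 14.1 and 1.33 CPM against 46.5 and 30.5 CPM.

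Among the oogenesins, Oog3 had the most CPM in every library. Its input level was 610 and 622 CPM in old and 811 and 756 CPM in young oocytes. Its HA level was 1557 and 1166 CPM in old and 1283 and 1248 CPM in young oocytes. Input was thus lower in both old pools, while the HA values overlapped. The log2 difference was -0.34 in input (interval -0.86 to 0.17, adjusted p = 0.838), 0.09 in HA (interval -0.74 to 0.92, adjusted p = 0.963) and 0.44 in TE (interval -0.44 to 1.31, adjusted p = 0.833) in limma. Both old pools had a higher TE than both young pools, 2.21 ± 0.479 against 1.62 ± 0.0495 (SD, n = 2 pools each), but the sign of that difference turned to -0.18 after quantile normalization and to -0.02 with libraries rescaled to the same sum. The HA difference turned to -0.69 and -0.55 in these settings.

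Oog4 was the only member that was higher in both old pools in input and in HA. It had 390 and 345 CPM in old and 274 and 336 CPM in young input libraries. In HA it had 302 and 431 CPM in old and 188 and 267 CPM in young libraries. The separation was narrow in input, where 345 CPM in an old pool faced 336 CPM in a young one. The log2 difference was 0.27 in input (interval -0.33 to 0.88, adjusted p = 0.914) and 0.68 in HA (interval -0.43 to 1.80, adjusted p = 0.623) in limma. In HA it kept its sign in each of 14 alternative settings, from 0.05 to 0.94. Its TE overlapped between ages, with 0.775 and 1.25 in old and 0.687 and 0.795 in young pools.

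For Oog2 and Oog1 the values carry the reservation on shared sequence given above. Oog2 had 198 and 193 CPM in old and 163 and 146 CPM in young input libraries, higher in both old pools. Its HA level overlapped, with 125 and 98.8 CPM in old and 107 and 105 CPM in young libraries. The log2 difference was 0.34 in input, 0.06 in HA and -0.28 in TE, with adjusted p-values of 0.899, 0.986 and 0.95 in limma, and the HA difference turned to -0.45 after quantile normalization and to -0.57 with libraries rescaled to the same sum. The HA level of Gm13084, the relative that shares the most windows with Oog2, was 238 and 235 CPM in old and 223 and 237 CPM in young libraries.

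Oog1 had 7.63 and 14.1 CPM in old and 19.8 and 19.7 CPM in young HA libraries. Its input level was 18.3 and 38.0 CPM in old and 23.5 and 26.6 CPM in young oocytes. HA was lower in both old pools, input overlapped, and the TE was 0.416 and 0.371 in old against 0.843 and 0.740 in young pools. The log2 difference in TE was -0.94 (standard error 1.35, interval -4.01 to 2.13, adjusted p = 0.9 in limma). When Oog1 was summed with Gm2042, which was decided on once the values had been seen, the separation was lost. The sum had 13.4 and 39.5 CPM in old and 29.6 and 31.5 CPM in young HA libraries, and its TE was 0.367 and 0.760 in old and 0.600 and 0.666 in young pools. The log2 difference in TE was then -0.24.

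**Figure D4:**
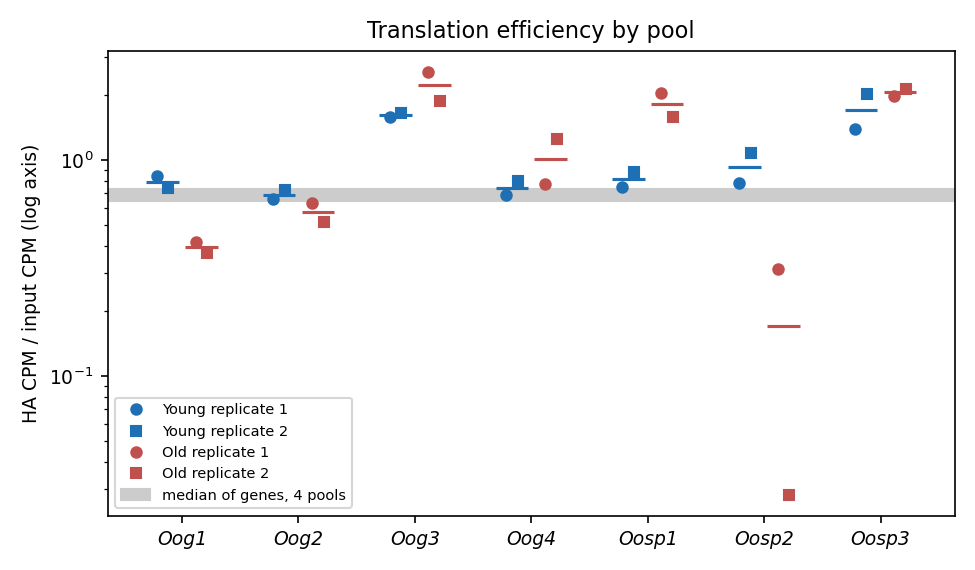
Translation efficiency of each gene (HA CPM over input CPM, logarithmic axis) in each pool, circles for replicate 1 and squares for replicate 2, blue for young and red for old, with short lines at the means of 2 pools. The grey band spans the median TE of 6530 genes in the 4 pools, from 0.648 to 0.729. Oog3 and Oosp3 lie above the band in every pool, Oosp1 lies well above it in the old pools, and Oosp2 falls to 0.0283 in old replicate 2.

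Within each family, members differed in both directions. In HA, 2 of the 7 genes were higher in both old pools and 2 were lower, compared with 17.2% and 24.7% of all genes. In input the numbers were 2 and 2, against 16.4% and 18.9% of all genes, and in TE they were 2 and 3, against 16.7% and 22.8% of 8402 genes with a ratio in every pool. The members thereby separated the ages in more cases than the genes of the tables did on average, but with so few genes and without a test of the list nothing particular to them can be read from this. The median log2 difference of the members was 0.09 in HA, 0.10 in input and 0.29 in TE, and that of all genes was -0.14, -0.03 and -0.10. As deposited, 5 members had a positive difference in HA and 2 a negative one. After quantile normalization, and also with libraries rescaled to the same sum, the numbers were 1 and 6. The genes of the HA table at an unadjusted p under 0.05 split into 381 higher and 930 lower as deposited, 253 and 230 after quantile normalization, and 112 and 1283 after rescaling.

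The sums of the families gave a different picture from the single members. The 4 Oog genes together had 1217 and 1197 CPM in old and 1272 and 1264 CPM in young input libraries. In HA they had 1992 and 1710 CPM in old and 1597 and 1640 CPM in young libraries, higher in both old pools, of which Oog3 alone made up between 68.2% and 80.3%. With every library rescaled to the same sum the direction turned, to 1786 and 1223 CPM in old against 2071 and 1973 CPM in young HA libraries. The 3 Oosp genes together had 747 and 609 CPM in old and 850 and 768 CPM in young input libraries. Their HA sum overlapped between ages, with 1414 and 1055 CPM in old and 829 and 1104 CPM in young libraries.

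**Figure D5:**
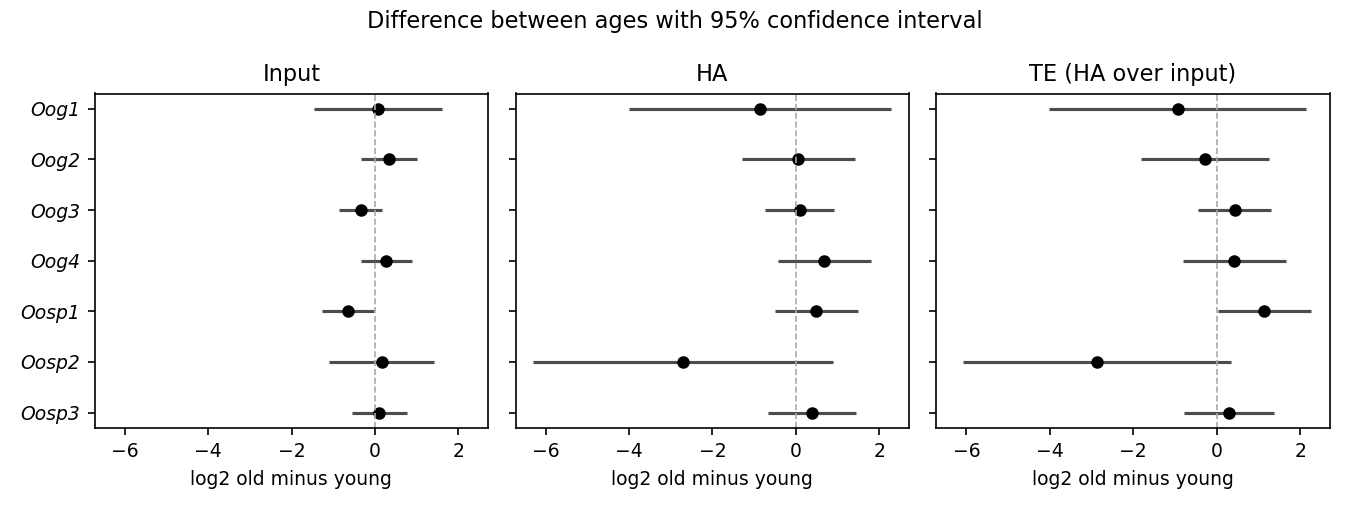
Difference between ages of each gene in input, HA and TE (horizontal axis, log2 old minus young on the log2(CPM + 1) scale). Points are limma estimates from 2 old and 2 young pools and lines are 95% confidence intervals. Only the intervals of Oosp1 in input and in TE leave out 0, and no gene passed the adjustment over all genes.

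The wider PRAME-like family, to which the oogenesins belong, was represented by 17 further genes picked by symbol or synonym, 14 of them in both tables. This rule left out Gm2042, although it was in both tables and shares most of its windows with Oog1. Of the 16 in the HA table, 12 had a positive and 4 a negative log2 difference, with a median of 0.18, whereas 45.9% of all genes were positive. This split held for the values as deposited. It was 8 and 8 after quantile normalization and 5 and 11 with libraries rescaled to the same sum. None passed the adjustment in limma, and 1 of 16 had an unadjusted p under 0.05, against 14.7% of all genes. That gene was C87499, the most abundant in HA CPM, with 1814 and 2150 CPM in old and 1027 and 1193 CPM in young HA libraries (log2 difference 0.83, standard error 0.34, adjusted p = 0.329). Its input level was nearly level across libraries, at 599 and 628 CPM in old and 610 and 591 CPM in young oocytes. The next in HA level were Gm13023, with 1256 and 1817 CPM in old and 540 and 1026 CPM in young HA libraries, and Pramef12, with 1410 and 1370 CPM against 942 and 847 CPM. In CPM as deposited both were higher in both old pools, with log2 differences of 1.02 and 0.64 (adjusted p = 0.357 and 0.466 in limma). For these named genes the other scalings are not given. In input as deposited, 11 of 15 PRAME-like genes had a positive difference (median 0.13), against 48.6% of all genes. That majority also depended on the scaling. Quantile normalization gave 9 positive and 6 negative input differences, whereas equal library sums turned the split to 6 and 9 (median -0.06). In TE, 6 of 14 PRAME-like genes were positive (median -0.12), against 47.1% of all genes. These genes share sequence with each other and with Oog1 to Oog4, so they are not independent. Plac1, the relative of the Oosp genes, was in the input table only, at 0.698 and 1.20 CPM in old and 0 and 5.20 CPM in young libraries.

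Because translation in the maturing oocyte depends on 3'-UTR elements, the annotated 3'-UTRs were searched for the CPE motifs TTTTAT and TTTTAAT on the transcribed strand. Of the 7 genes, 5 had a CPE motif within the last 200 bases (71.4%), against 2525 of 7860 genes (32.1%) of both tables. The members are related within each family and the list was not tested, so no enrichment can be read from this. The sites are printed because they show which members carry the motif, in capitals, and in which setting.
Oog1 (chr12:87608779-87608807, plus strand): atagaagcaccaTTTTATgagactggccc
Oog2 (chr4:144196761-144196789, plus strand): tgttaagcactaTTTTATtctctaggatt
Oog3 (chr4:144157658-144157686, minus strand): tgtcaagcatgcTTTTATtctctaggatt
Oosp1 (chr19:11667562-11667591, minus strand): agctgtccctgcTTTTAATtgtataaaatc
Oosp3 (chr19:11711798-11711826, plus strand): aactatcagtgtTTTTATcctttactgta
The printed motif ended 29 bases before the last polyadenylation signal AATAAA in Oog1 and 83 bases before it in Oog2 and Oog3. In Oosp1 it ended 20 bases and in Oosp3 24 bases before that signal. Oog3 had 2 and Oosp3 had 5 such motifs in all. Oog4 and Oosp2 had none of these letters in their annotated 3'-UTR. The members without a motif, Oog4 and Oosp2, had HA differences of 0.68 and -2.70 as deposited, and those with one ranged from -0.86 to 0.49 (log2, old minus young). After quantile normalization Oog4 and Oosp2 had 0.06 and -2.37, and those with a motif ranged from -0.69 to -0.13.

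Over the 8 libraries, the genes whose levels were most like those of Oog3 were Nol10 (Pearson's r = 0.983), Prkdc (0.971) and Copb1 (0.964), among 5304 genes with a mean of at least 10 CPM in each table. For Oosp1 they were Taf6 (0.936), Atp11b (0.918) and Dpy30 (0.907). These coefficients were computed on log2(CPM + 1) across HA and input libraries that were normalized separately, and HA and input of 1 pool share a lysate, so that they describe likeness and carry no test. Dpy30 had 25.2 and 26.6 CPM in old and 79.3 and 64.8 CPM in young input libraries, without overlap, whereas its HA levels of 109 and 54.0 CPM in old and 71.0 and 54.8 CPM in young libraries overlapped.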

How the data were processed

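RNA-Seq of 8 libraries from 4 pools of MII oocytes was used. The deposited values are a signal in CPM, which the authors made by trimming (Trimmomatic 0.36), alignment with HISAT2 to GRCm38, counting per gene with HTSeq without strand (GENCODE M11), removal of low genes and normalization by TMM in edgeR, separately for HA and input. cDNA was primed with random hexamers and chimeric poly(T). No column of sample values was left out (0). Labels call the 2 pools of an age separate replicates and name no batch. The 7 members, the gene lists and the tests were chosen with earlier results of these data known.

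Every value (100%, tolerance 0.001 of a read) was a whole multiple of 1 read, so reads were recovered. The main test was a two-sided comparison of old and young in limma (lmFit, eBayes with trend), taken on log2(CPM + 1), with Benjamini-Hochberg adjustment over all genes. TE was HA over input per pool, tested as the difference of the log2 values, with the mean log2 level as trend. HA and input of a pool come from 1 lysate and are paired in TE. Old and young pools share only a number. On recovered reads, edgeR's likelihood ratio test called 38 higher and 257 lower genes in HA and 19 and 31 in input, its quasi-likelihood test 0 and 0 in both, and DESeq2 165 and 343 in HA and 55 and 56 in input.

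Named relatives were the 3 PRAME-like genes with the highest mean HA CPM and any with an unadjusted p under 0.05 (at most 6), and likeness was given for the Oog and the Oosp gene with the most input CPM. Sequences and coordinates came from GENCODE M21 and RefSeq (GRCm38.p6), and GENCODE M21 held 99.8% of HA and 99.9% of input gene identifiers. The fits were tested on simulated data. Tests were run in R 4.3.3 with DESeq2 1.42.0, edgeR 4.0.16 and limma 3.58.1. Tables, sequences and plots were made in Python 3.11.15 with pandas 2.3.3, numpy 2.4.6, matplotlib 3.10.9 and Biopython 1.88.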

Additional observations from a re-analysis of the deposited data

Results flagged for a closer look

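Oosp1 stood out because its HA and input levels moved in opposite directions between the same pools, higher in both old pools in HA and lower in both in input. The test of this difference, which is the comparison of TE, gave 1.14 (log2, old minus young), with an unadjusted p of 0.0476 and an adjusted p of 0.739 in limma over all genes, so it did not pass the adjustment. The HA difference turned to -0.13 after quantile normalization and to -0.15 when each library was rescaled to an equal sum, and the directions were then no longer opposite. The same separation was found in 156 of 8537 genes (1.83%), among them the oocyte markers Gdf9 (HA 5728 and 9442 CPM in old against 5131 and 5671 CPM in young pools) and Nlrp5 (1747 and 2383 against 1123 and 1150 CPM).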

How the results depend on the processing

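The number of members past an adjusted p of 0.05 was 0 in HA, input and TE in limma and in every alternative that was run, with pseudocounts of 0.1 and 5 CPM, a filter of at least 10 CPM in at least 2 libraries, 3 other scalings, tests on the recovered reads, each pool left out in turn and the replicate number as a block (0 members with the replicate block). At an unadjusted p under 0.05 the replicate block left 0 members in HA, 1 in input and 0 in TE. Quantile normalization and rescaling to the same sum also left 0 members in TE, and gave 2 in input, Oosp1 and Oog3. Old and young pools with the same number did not deviate together (correlation over 5305 genes 0.12 in HA, 0.02 in input and 0.05 in TE), so the block is given here only. Over all genes of the HA table the block moved the number of calls from 0 to 9, and in TE it gave 3 higher and 2 lower genes instead of 0.

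Directions were less stable. After quantile normalization the HA differences (log2, old minus young) turned to -0.45 for Oog2, -0.69 for Oog3, -0.13 for Oosp1 and -0.27 for Oosp3, the input difference of Oosp3 to -0.03, and the TE differences to -0.18 for Oog3, -0.06 for Oog4 and -0.24 for Oosp3. With libraries rescaled to the same sum, HA differences turned to -0.57 for Oog2, -0.55 for Oog3, -0.15 for Oosp1 and -0.25 for Oosp3, input differences to -0.10 for Oog1, -0.03 for Oosp2 and -0.09 for Oosp3, and TE differences to -0.02 for Oog3, -0.04 for Oog4 and -0.16 for Oosp3. With single pools left out, the HA difference ranged from -0.10 to 0.23 for Oog2, from -0.12 to 0.30 for Oog3 and from -0.05 to 0.83 for Oosp3, and the input difference from -0.43 to 0.59 for Oog1, from -0.37 to 0.68 for Oosp2 and from -0.14 to 0.34 for Oosp3. Summing Oog1 with Gm2042, a setting added after seeing the data, turned the input difference of Oog1 to -0.15. The cause of these changes was not tested.

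Members had from 321 to 99231 reads in HA apart from Oosp2 in old replicate 2, with 36. These reads come from amplified cDNA without molecular identifiers, so their number does not give that of independent molecules. How depth bears on the width of the intervals was not tested.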
